A study of Arabidopsis thaliana with 11 samples.

Results

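The comparison concerns the accessions of Arabidopsis that were represented by 1 array each, and it asks which genes differ with dependency on ZWILLE (ZLL) when Col-0 and Fe-1 are left aside. The ZLL-dependent arrays were those of Ler-0, Nw-0 and Bay-0, and the ZLL-independent arrays were those of Ts-1 and Van-0, chosen by the dependency that the sample labels give. These are 5 of the 11 ATH1 arrays, and the other 6 are 3 arrays of Fe-1, a ZLL-dependent accession, and 3 of Col-0, a ZLL-independent accession, which served as a separate pair. All plants were wild type and all RNA came from embryos taken out of the seed at the torpedo stage, so that no embryo lacked ZLL and a class says only how the accession responds to a zll mutation. Ler-0 also carries the erecta mutation. The labels are not uniform, since Ler-1 stands for Ler-0 in a source name and in the design text, and Tossa del Mar-0 stands once for Ts-1, and here the titles were followed.

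ZLL, also named ARGONAUTE10, is a small RNA binding protein that keeps the stem cells of the shoot meristem from being lost while the embryo forms. It binds a microRNA family that would otherwise, through ARGONAUTE1, lower the HD-ZIP III transcription factors, which promote shoot meristem and upper leaf identity. In ZLL-dependent accessions, zll mutants often end with a shoot apex without stem cells, whereas in ZLL-independent accessions most mutants keep the meristem. The study mapped modifiers of this requirement, called FLETSCHE (FHE), in a cross of Ler and Col.

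An array level is the log2 RMA value of a probe set, a group of short probes designed on the Col-0 sequence, and a difference of 1 on this scale is 2-fold. The match of these probes to the sequences of the other accessions was not tested, and a difference in level is a difference in signal. The medians of the 5 arrays lay between 7.59 and 7.68, and the lower quartiles between 4.95 and 5.04. Over the 22746 probe sets, pairs of the 5 arrays correlated at 0.979 to 0.988, against 0.996 to 0.997 for replicates of Fe-1 or Col-0. The points of these correlations are probe sets and no replicates. Since each accession had 1 array, the spread within a class is that between accessions, and the difference between embryo batches of 1 accession cannot be told apart from it. With 3 against 2 arrays an exact permutation test has 10 arrangements and cannot give a two-sided p below 0.1, so that calls rest on limma, which borrows the spread from all probe sets.

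With Ler-0 included, arrays of different ZLL dependency did not stand further apart than arrays of the same dependency. Between a ZLL-dependent and a ZLL-independent array, 264 to 487 probe sets were at least 3-fold apart (mean 347, 6 pairs). Within the ZLL-dependent class the number was 467 for Ler-0 and Nw-0, 481 for Ler-0 and Bay-0, and 229 for Nw-0 and Bay-0 (mean 392). Ts-1 and Van-0 differed at 264 probe sets, as many as Nw-0 and Ts-1. Ler-0 was the array that stood apart: its pairs gave between 374 and 487, and the pairs without it between 229 and 340. Among the pairs without Ler-0, those of unlike dependency gave 264, 292, 323 and 340, and those of like dependency 229 and 264. The order of the classes thus depended on Ler-0. Replicates of 1 accession differed at 4 to 84 probe sets (mean 26.7, 6 pairs), with the highest number between Fe-1 replicates 1 and 2. No test was made of these numbers, since the pairs share arrays.

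**Figure D1:**
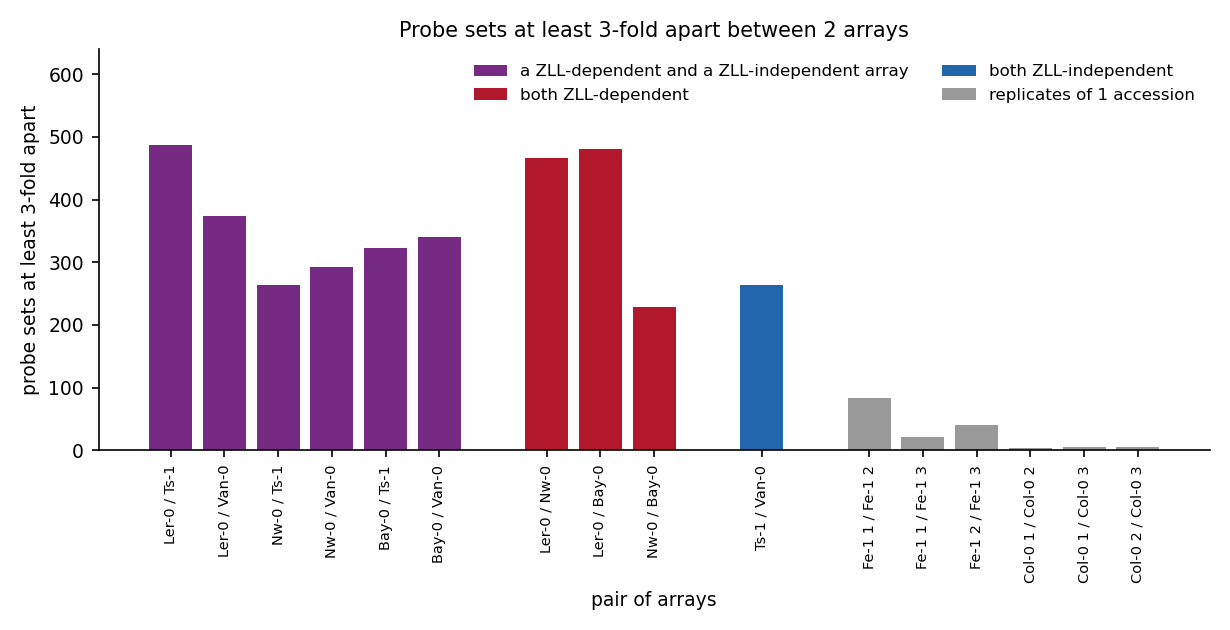
Probe sets at least 3-fold apart (vertical axis, number) for each pair of arrays (horizontal axis), with pairs of unlike dependency first, then pairs of like dependency, then replicates of Fe-1 and of Col-0 in grey. The 6 pairs of unlike dependency ranged over 264 to 487 and the 3 pairs of ZLL-dependent arrays over 229 to 481.

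With the p adjusted after Benjamini and Hochberg under 0.05 and a difference of 3-fold or more, 3 of 22746 probe sets were called (0.0132%), of which 2 were higher and 1 was lower in the ZLL-dependent arrays. They read ETFBETA, the gene AT3G44430, and the neighbouring genes AT5G17100 and AT5G17110 together. All 3 had an adjusted p of 0.0235 in limma, and the next lowest adjusted p of any probe set was 0.11. No call was kept when any 1 of the 5 arrays was left out: over those fits the adjusted p ranged from 0.0506 to 0.391 for ETFBETA and AT3G44430, and from 0.058 to 0.438 for AT5G17100. Without adjustment, 1072 probe sets had a p under 0.05 (4.71%), 426 higher and 646 lower, and 47 of them were also at least 3-fold apart (0.207%), 14 higher and 33 lower.

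ETFBETA (AT5G43430, chromosome 5) encodes the beta subunit of the electron transfer flavoprotein, which passes electrons from the breakdown of branched-chain amino acids to the mitochondrial respiratory chain. It lies near ZLL, with 52 annotated genes between them in TAIR10.1. Its level was 10.11 in Ler-0, 10.09 in Nw-0 and 10.09 in Bay-0, against 7.06 in Ts-1 and 6.79 in Van-0. The ZLL-dependent arrays were nearly equal, and both ZLL-independent arrays lay about 3 log2 units below them. The difference was 3.17 ± 0.11 (SE), a 9.0-fold higher level in the ZLL-dependent arrays. The held-out accessions did not continue this split, since ETFBETA was at 9.12, 9.01 and 8.72 in Fe-1 and at 10.26, 10.15 and 10.45 in Col-0. ETFBETA was thus lower in Fe-1 than in Col-0 by 1.34 ± 0.12 (adjusted p = 0.000312, limma), and its level in Col-0 was that of the ZLL-dependent single arrays. The SE and p of Fe-1 against Col-0, here and below, rest on the spread between replicates and not on that between accessions.

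AT3G44430, a protein-coding gene on chromosome 3, showed the reverse order. Its level was 4.23 in Ler-0, 4.66 in Nw-0 and 4.71 in Bay-0, against 8.72 in Ts-1 and 8.90 in Van-0. The 3 ZLL-dependent arrays were below the lower quartile of their array, so that the probe set was near background there, and it was well above the median in both ZLL-independent arrays. The difference was -4.28 ± 0.18 (SE), or 19.4-fold. Here too the held-out pair ran the other way, with 9.63, 9.61 and 9.40 in Fe-1 and 8.41, 8.40 and 8.02 in Col-0, a difference of 1.27 ± 0.12 (adjusted p = 0.000389). Fe-1, which is ZLL-dependent, thus had a higher level than both ZLL-independent single arrays.

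The probe set shared by AT5G17100 and AT5G17110 was the one call that the held-out pair also showed. Its level was 10.46 in Ler-0, 10.18 in Nw-0 and 10.29 in Bay-0, against 6.69 in Ts-1 and 6.29 in Van-0, a difference of 3.82 ± 0.16 (SE), or 14.1-fold. Fe-1 had 10.24, 10.63 and 9.92, and Col-0 had 6.08, 6.30 and 6.66, a difference of 3.92 ± 0.20 (adjusted p = 2.04e-05). The lowest of the 6 arrays of ZLL-dependent accessions was thus at 9.92, and the highest of the 5 arrays of ZLL-independent accessions at 6.69. The difference between both comparisons was -0.10 ± 0.30. The chip marks this probe set as one whose probes match more than 1 transcript, and both genes cannot be told apart. The study lists AT5G17100 for its grouped comparison, which used these same arrays, so its split here is not independent of that choice.

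The genes around the called genes did not share their differences. Of the 10 nearest probe sets with 1 gene name around ETFBETA, the differences lay between -0.14 and 0.31, and for AT3G44430 and AT5G17100 they lay between -0.54 and 0.28 and between -0.15 and 0.28. The lowest adjusted p of any of these neighbours was 0.968.

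**Figure D2:**
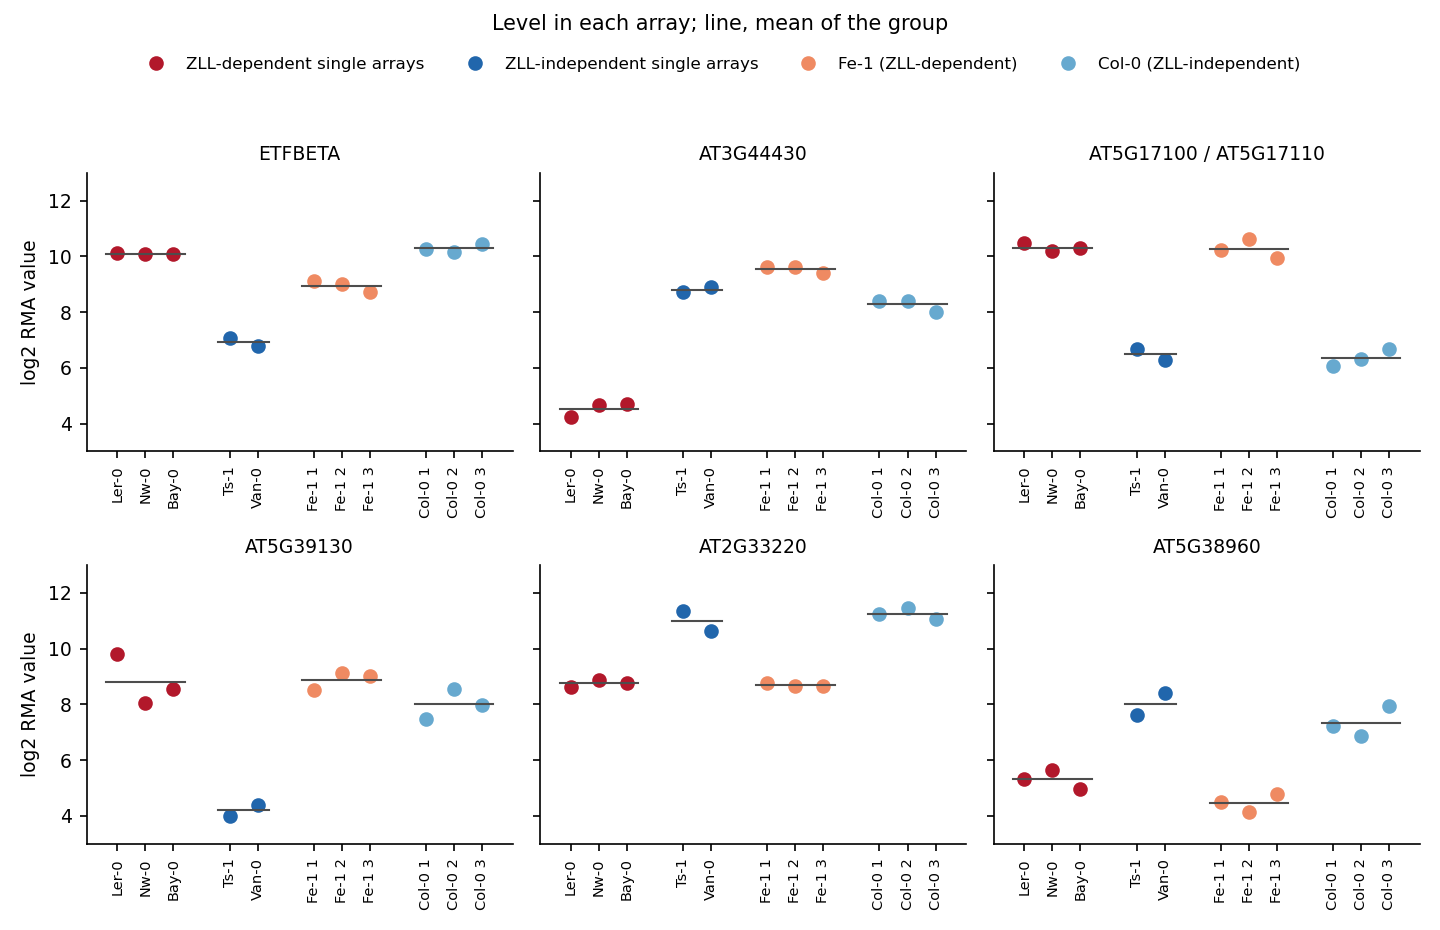
Log2 RMA value (vertical axis) of 6 probe sets in each of the 11 arrays (horizontal axis), with points for arrays and a line for the mean of each group. ETFBETA and AT3G44430 separate the ZLL-dependent from the ZLL-independent single arrays but run the other way in Fe-1 and Col-0, whereas AT5G17100 / AT5G17110, AT2G33220 and AT5G38960 keep 1 direction in both comparisons. The study listed these last genes from a comparison over all 11 arrays, so that their shared direction is no independent evidence.

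A wider set was described by the arrangement of the arrays alone. At 65 probe sets (0.286%) the 3 ZLL-dependent and 2 ZLL-independent arrays did not overlap and the class means were at least 3-fold apart, 21 of them higher (0.0923%) and 44 lower (0.193%) in the ZLL-dependent arrays. Over all probe sets without a fold limit, 20.3% did not overlap, 8.19% higher and 12.1% lower. Of the 65, 46 have 1 gene name, 3 have several and 16 are not listed in the chip annotation. At 14 probe sets (0.0615%), 5 higher and 9 lower, every ZLL-dependent array was at least 3-fold apart from every ZLL-independent one. By mean alone, 101 probe sets were at least 3-fold apart, and at 36 of these the arrays overlapped. At 21 of the 65 the mean of the lower class was below the lower quartile of every array, though single arrays of that class could lie above it. On the chip, 7 are marked as open to cross-hybridization.

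Among probe sets with 1 gene name and no overlap, the largest increase belonged to AT5G39130, one of a cluster of germin-like protein genes on chromosome 5 that encode secreted, cell wall bound glycoproteins. Its level was 9.80 in Ler-0, 8.06 in Nw-0 and 8.57 in Bay-0, against 4.0 in Ts-1 and 4.40 in Van-0. Both ZLL-independent arrays were near background, but the difference of 4.61 ± 0.54 did not pass the adjustment (adjusted p = 0.301). It was at 8.52, 9.11 and 9.04 in Fe-1 and at 7.50, 8.54 and 7.98 in Col-0, so that Ts-1 and Van-0 stood apart from the other 5 accessions. A second germin-like gene, AT5G38960, was ordered the other way, with 5.33, 5.65 and 4.97 in Ler-0, Nw-0 and Bay-0, against 7.61 in Ts-1 and 8.39 in Van-0 (-2.69 ± 0.31, adjusted p = 0.301). The third germin-like gene named, GLP6, did not follow dependency, since it was at 7.73, 8.43 and 6.11 in Ler-0, Nw-0 and Bay-0, against 5.76 in Ts-1 and 8.70 in Van-0.

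Receptor genes of the NBS-LRR type were ordered in both directions, and none was called. AT5G18360, a receptor of the TIR-NBS-LRR class that senses pathogens inside the cell, had levels of 4.19, 4.78 and 4.82 in Ler-0, Nw-0 and Bay-0, against 7.07 in Ts-1 and 6.40 in Van-0 (-2.14 ± 0.30, adjusted p = 0.415). AT4G19510, of the same class, was ordered the other way, with 4.94 in Ler-0, 7.25 in Nw-0 and 7.45 in Bay-0, against 4.46 in Ts-1 and 4.50 in Van-0. Only Nw-0 and Bay-0 were clearly above background for AT4G19510, and Ler-0 lay close to both ZLL-independent arrays. AT5G35450, of the related CC-NBS-LRR class, had the same pattern, at 3.72 in Ler-0, 5.88 in Nw-0 and 5.69 in Bay-0, against 3.50 in Ts-1 and 3.43 in Van-0. AT5G40920, a transcribed pseudogene, was more even within classes, with 7.65, 7.96 and 7.31 in Ler-0, Nw-0 and Bay-0, against 4.32 in Ts-1 and 4.87 in Van-0 (3.05 ± 0.26, adjusted p = 0.213).

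Among genes of metabolism and protein turnover, AT2G33220, which encodes a subunit of mitochondrial complex I related to GRIM-19, was lower in each ZLL-dependent array. Its level was 8.62, 8.88 and 8.78 in Ler-0, Nw-0 and Bay-0, against 11.35 in Ts-1 and 10.64 in Van-0 (-2.23 ± 0.24, adjusted p = 0.298). UBC31, a ubiquitin-conjugating enzyme, had 6.71, 7.31 and 5.70, against 9.50 in Ts-1 and 9.16 in Van-0 (-2.75 ± 0.49, adjusted p = 0.592). AT3G43960, a papain-type cysteine protease, had 6.68 in Ler-0, 9.62 in Nw-0 and 8.94 in Bay-0, against 5.33 in Ts-1 and 4.86 in Van-0, so that Ler-0 was nearer to Ts-1 than to the other ZLL-dependent arrays. AT5G44520, which resembles ribose 5-phosphate isomerases, was tighter, with 8.99, 8.67 and 8.80, against 6.71 in Ts-1 and 5.64 in Van-0 (2.64 ± 0.34, adjusted p = 0.397). None of the probe sets named apart from the 3 calls had an adjusted p below 0.213.

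For a part of the 65 the arrays of a class were far apart. At 15 of them Ts-1 and Van-0 were themselves at least 3-fold apart, at 17 the ZLL-dependent arrays spanned at least 3-fold, and at 23 the arrays of each class lay within 2-fold. The pseudogene AT3G09170 was at 10.10 in Ts-1 and at 3.82 to 4.15 in the other 10 arrays. AT5G49440 was at 11.46 in Ts-1 but at 6.08 in Van-0, next to 5.79 to 6.04 in the ZLL-dependent single arrays. Col-0 shared the high level of Ts-1, at 11.28 to 11.56, and Fe-1 was at 5.70 to 5.93. AT2G14460 was at 4.53 in Van-0, and the other 10 arrays lay between 8.55 and 10.25. AT1G12400, a subunit of the repair and transcription factor TFIIH, was at 6.56 in Ler-0 and 6.90 in Nw-0 but at 9.78 in Bay-0, against 9.79 in Ts-1 and 10.08 in Van-0. For each of these genes, the mean of the divided class lay away from all of its arrays.

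Fe-1 and Col-0 share no array with the comparison and were used as a held-out pair of 1 ZLL-dependent and 1 ZLL-independent accession. With 1 accession against 1, its p-values measure a difference between these accessions and not one of ZLL dependency. Of the 65 probe sets, 34 differed in the same direction between Fe-1 and Col-0 and 31 in the opposite direction, or 52.3%, against 47.3% of all 22746 probe sets. The 21 higher probe sets gave 9 in the same and 12 in the opposite direction, and the 44 lower ones gave 25 and 19. Between Fe-1 and Col-0, 319 probe sets were called at the same thresholds (1.4% of all), and these included 12 of the 65 in the same direction and 5 in the opposite one. At 20 of the 65 the Fe-1 and Col-0 arrays did not overlap in the same direction and at 18 in the opposite direction, with 45.7% of all probe sets not overlapping in that pair. Over all probe sets the correlation of both differences was -0.011, across probe sets and with no array in common.

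Set by the midpoint between both class means, Fe-1 lay on the ZLL-dependent side and Col-0 on the ZLL-independent side at 19 of the 65 probe sets, 4 higher and 15 lower. At 31, Fe-1 and Col-0 were both on the side of the ZLL-dependent arrays, and at 25 of these 31 both Ts-1 and Van-0 lay outside the range of the other 9 arrays. At 8 both were on the side of Ts-1 and Van-0, and at 7 they had changed sides. The 65 were picked because Ts-1 and Van-0 did not overlap the ZLL-dependent arrays, so that the 25 follow in part from that choice. No share over all probe sets is given beside these counts. The genes on changed sides included SQN, AT1G48180, AT4G19510 and AT5G44520. For AT4G19510, Fe-1 was at 4.51 to 4.61 and Col-0 at 7.28 to 7.50, a difference of -2.84 ± 0.08 (adjusted p = 9.33e-07). For AT5G44520, Fe-1 was at 6.40 to 6.71 and Col-0 at 8.44 to 8.63 (-1.93 ± 0.10, adjusted p = 2.57e-05).

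The difference between both comparisons was tested itself in a fit with all 11 arrays. It passed an adjusted p under 0.05 at 1272 probe sets (5.59%), 508 of them higher and 764 lower in the single-array comparison, and at 23 of the 65. The 65, with ETFBETA and AT3G44430 among them, were picked by the single-array difference, which is 1 part of this test. Their count and p-values here are thus no independent evidence. This fit pools the spread between accessions with the smaller spread between replicates, and with the accession as a random block it called 130 probe sets. Leaving out any 1 array of Fe-1 or Col-0, or Van-0, also lowered the number, to between 506 and 824. ETFBETA differed by 4.51 ± 0.18 (adjusted p = 3.42e-06) and AT3G44430 by -5.55 ± 0.23 (adjusted p = 3.42e-06).

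**Figure D3:**
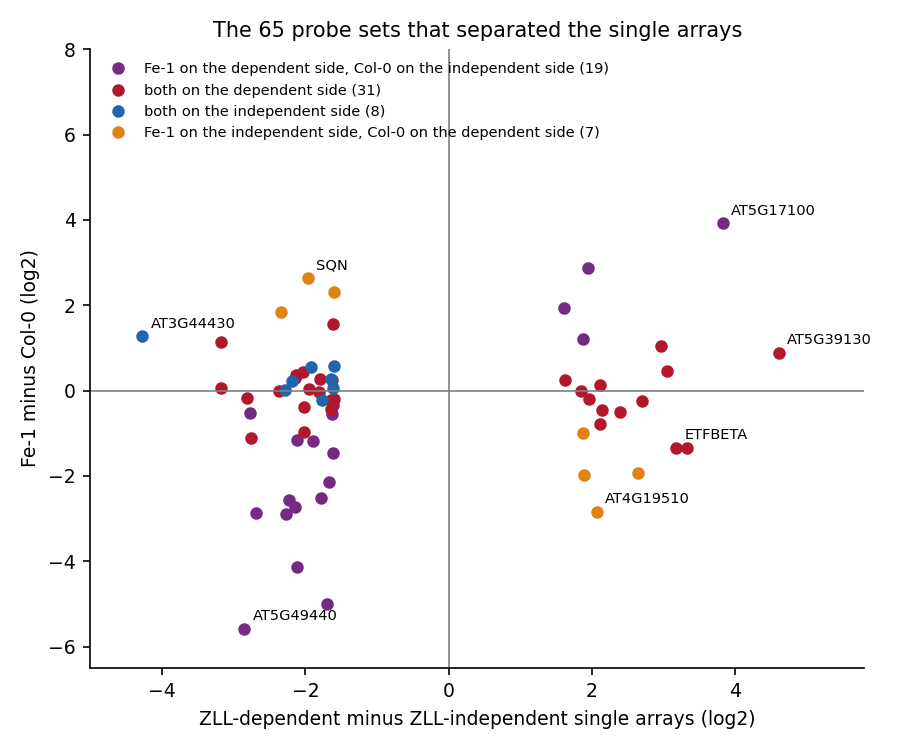
Difference between Fe-1 and Col-0 (vertical axis, log2) against the difference between ZLL-dependent and ZLL-independent single arrays (horizontal axis, log2) for the 65 probe sets that separated the single arrays at 3-fold. Colours give the side of the midpoint on which Fe-1 and Col-0 lay, and 19 points follow the single arrays with both accessions.

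The replicates of Fe-1 varied at a part of these same probe sets. At 14 of the 65 (21.5%) the 3 Fe-1 replicates spanned at least 2-fold, against 1.27% of all probe sets, and all 14 were among the 44 that were lower in the ZLL-dependent arrays. Fe-1 replicate 2 was the highest at 12 of the 14 and replicate 1 the lowest at 13. At 4 of the 65 the Col-0 replicates spanned at least 2-fold. UBC31 was at 5.0, 7.26 and 6.99 in Fe-1, next to a class difference of -2.75, and AT2G20170 was at 4.39, 6.39 and 6.15. The part of this variation within 1 accession in the split of the single arrays was not tested, since none of them had a second array.

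The study lists 12 probe sets for its comparison of the accessions grouped by ZLL dependency, and these were followed in the 5 arrays alone. All 12 kept the 3 and 2 arrays apart, 2 higher and 10 lower, and 9 of them were at least 3-fold apart, next to 20.3% of all probe sets that kept them apart and 0.286% that did so at 3-fold, but only AT5G17100 was called (median difference of the 12, -1.73, against -0.015 for all probe sets). All 12 differed in the same direction between Fe-1 and Col-0, and 11 were called there, next to 1.4% of all. They were chosen on all 11 arrays, so that neither count is independent evidence of a direction.

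AT5G27240, which carries a DnaJ chaperone domain, was the second of the 12 that was higher, at 7.93, 8.29 and 7.97 in Ler-0, Nw-0 and Bay-0, against 6.13 in Ts-1 and 6.77 in Van-0 (1.61 ± 0.24). BZO2H3, a bZIP transcription factor of the response to low energy, was at 8.78, 8.34 and 8.29, against 9.66 in Ts-1 and 9.91 in Van-0 (-1.31 ± 0.19). AT5G56910 was at 8.85, 8.22 and 7.97, against 10.60 in Ts-1 and 10.32 in Van-0 (-2.12 ± 0.29). AT5G27240 and AT5G56910, like AT2G33220, AT5G18360 and AT5G38960, had both ZLL-independent arrays more than 2-fold away from every ZLL-dependent one. For BZO2H3 the nearest arrays of unlike dependency were 0.88 apart on the log2 scale.

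For others of the 12, Van-0 lay close to the ZLL-dependent arrays. AT3G61010, a glycosyl hydrolase, was at 3.96, 4.06 and 4.06 in Ler-0, Nw-0 and Bay-0, against 7.18 in Ts-1 but 4.43 in Van-0. AT4G16710, a glycosyl transferase, was at 7.17, 7.07 and 7.34, against 8.98 in Ts-1 and 7.52 in Van-0. AT1G78820, a lectin read together with AT1G78830, was at 7.65, 6.29 and 6.82, against 8.75 in Ts-1 and 7.72 in Van-0. In AT1G12730, a component of GPI anchor attachment, Ler-0 instead was the array nearest to the other class, at 5.56 with 3.86 in Nw-0 and 3.73 in Bay-0, against 6.43 in Ts-1 and 6.89 in Van-0.

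SQUINT (SQN, AT2G15790, chromosome 2) is the Arabidopsis cyclophilin 40, a chaperone that promotes the activity of ARGONAUTE1 and lies at the mapped position of FHE2. The probe set that detects it was at 8.15 in Ler-0, 7.10 in Nw-0 and 6.55 in Bay-0, against 9.44 in Ts-1 and 9.03 in Van-0. SQN was thus at its highest in both ZLL-independent arrays, with a difference of -1.97 ± 0.49 that did not pass the adjustment (adjusted p = 0.908, limma). Fe-1 and Col-0 had the opposite order, with 8.63, 8.61 and 8.70 in Fe-1 and 5.87, 6.08 and 6.06 in Col-0. This was a difference of 2.65 ± 0.08 (adjusted p = 1.35e-06, limma). The difference between both comparisons was -4.61 ± 0.48 (adjusted p = 0.00155, limma). For SQN this pair was not held out, since the study listed SQN from its comparison of Fe-1 and Ler-0 with Col-0. SQN is also among the probe sets picked above for separating the single arrays at 3-fold. Neither of these adjusted p is thus independent evidence of a difference. Ordered by level, Ts-1 and Van-0 came first, then Fe-1, Ler-0, Nw-0, Bay-0 and Col-0, and the ranges of the Fe-1 and Col-0 replicates were narrower than the steps from Fe-1 to Ler-0 and from Bay-0 to Col-0. A second SQN probe set was at 3.60 to 3.85 in all 11 arrays, which is background. The study relates the level of SQN to stem cell maintenance for Col-0, Ler-0 and Fe-1, and more weakly for Nw-0 and Bay-0. It reports SQN in Ts-1 and Van-0 as unchanged from Fe-1 and Ler-0. For the role of SQN it also draws on the mapping, a mutant and transgenic lines.

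Since the level of SQN differed between accessions, a pair of the promoter differences that the study gives for Ler-0 and Col-0 is shown here. It lists others, among them a transposon sequence upstream of SQN that Col-0 has and Ler-0 lacks, which is not printed. Both are read from its table of SQN polymorphisms, on chromosome 2, in the order printed there, and no position is given since the table names no genome build. The AG repeat in the promoter has 39 units in the Col-0 sequence and 5 in the Ler-0 sequence, in capitals.
SQN promoter repeat, Ler-0: agacAGAGAGAGAGaaaga
SQN promoter repeat, Col-0: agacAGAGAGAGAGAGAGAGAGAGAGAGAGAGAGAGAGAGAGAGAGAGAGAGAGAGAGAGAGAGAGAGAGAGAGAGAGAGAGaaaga
SQN promoter bases in Col-0 alone: GTTTTATTATTTCT
The alleles of Nw-0, Bay-0, Ts-1, Van-0 and Fe-1 were not analysed here, and a relation of these sequences to the levels was not tested.

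The study lists 20 probe sets near the FHE regions, SQN included, from its comparison of Fe-1 and Ler-0 with Col-0, which shares the Ler-0 array with the comparison here and all Fe-1 and Col-0 arrays with the held-out pair. None of the 20 was called in the single arrays (lowest adjusted p 0.298), and 8 kept the arrays apart, 2 higher and 6 lower, next to 20.3% of all probe sets, 8.19% higher and 12.1% lower. Between Fe-1 and Col-0, 18 were called, next to 1.4% of all, but the list was chosen on those arrays. The direction was the same in both comparisons for 13 and opposite for 7, and the test of the difference passed for 8, next to 5.59% of all. This test contains the difference between Fe-1 and Col-0, arrays on which the list was chosen, so the 8 are no independent evidence. AT2G33220, AT2G14800 and AT5G38960 had differences of -2.23, -1.67 and -2.69 in the single arrays, which were not called, and of -2.56, -2.14 and -2.86 between Fe-1 and Col-0, which were called.

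Genes with opposite differences included AT1G48180, which was at 5.30, 4.98 and 5.08 in Ler-0, Nw-0 and Bay-0, against 7.38 in Ts-1 and 6.06 in Van-0, but at 7.02 to 7.16 in Fe-1 and 4.71 to 4.83 in Col-0. AT2G35820 was at 9.31, 7.74 and 7.47, against 9.63 in Ts-1 and 9.95 in Van-0, with Ler-0 close to both ZLL-independent arrays. Others separated Col-0 alone from the remaining accessions. The serine carboxypeptidase-like gene scpl44 was at 8.02, 9.79 and 9.27 in Ler-0, Nw-0 and Bay-0, against 9.48 in Ts-1 and 9.43 in Van-0, all above the 5.79 to 6.12 of Col-0. The probe set of the pseudogene AT3G29120, which the study names AT5G39060, was at 3.49 to 3.74 in all 5 single arrays and at 7.60 to 7.97 in Col-0, and the pseudogene AT2G13970 was at 4.33 to 4.99 in the single arrays and at 7.17 to 7.85 in Col-0. Still others varied within a class: THI2.2, a thionin, which is a small antimicrobial peptide, was at 6.55, 9.43 and 10.11 in Ler-0, Nw-0 and Bay-0, against 7.42 in Ts-1 and 12.20 in Van-0. CRR7, a factor of the chloroplast NDH complex, was at 9.54, 6.51 and 9.72, against 7.86 in Ts-1 and 8.89 in Van-0.

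**Figure D4:**
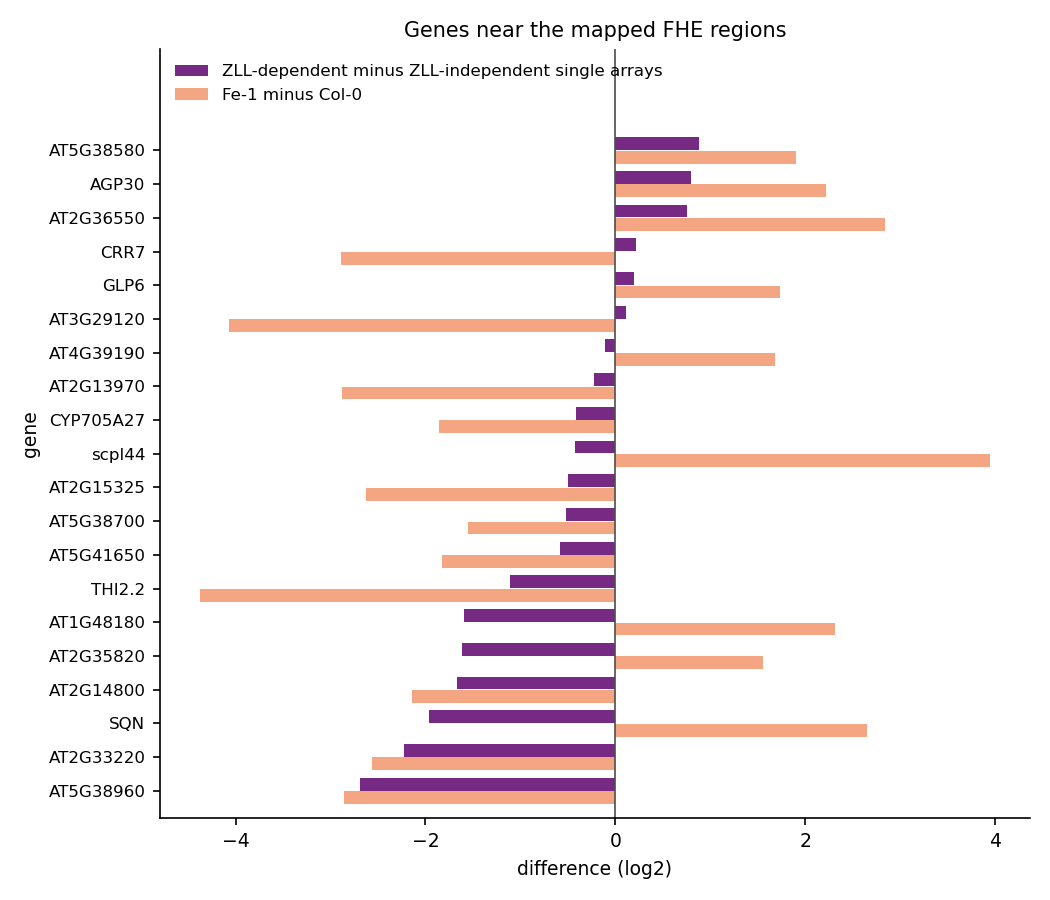
Difference on the log2 scale (horizontal axis) of the 20 probe sets that the study lists near the FHE regions (vertical axis, genes sorted by the single-array difference), for ZLL-dependent minus ZLL-independent single arrays (upper bar) and Fe-1 minus Col-0 (lower bar). The bars point to opposite sides for 7 genes, among them SQN with -1.97 and 2.65.

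In 16 gene lists drawn up for this tissue, 280 genes were looked up by name and 32 of them were measured under their own name, by 33 probe sets. None was called, higher or lower, at an adjusted p under 0.05 in limma without a fold limit, next to 3 of 22746 over all probe sets, and 3 had an unadjusted p under 0.05. With the spread taken within accessions from all 11 arrays, 5 of the 33 probe sets passed, next to 6.53% of all. No gene of the lists of microRNA target transcription factors, cell cycle genes and seed storage genes was measured by name, and neither was ZLL. Of the 33 probe sets, 3 were higher and 9 lower without overlap, next to 8.19% and 12.1% of all probe sets.

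Of the shoot meristem regulators, 6 of 34 were measured (median difference -0.28, lowest adjusted p 0.749). CLV3, the peptide signal made by the stem cells that restrains their number, was at 5.42 in Ler-0, 4.73 in Nw-0 and 4.96 in Bay-0, against 6.05 in Ts-1 and 6.12 in Van-0. CLV3 levels were low on all 5 arrays, and the difference of -1.05 ± 0.22 had a p of 0.00534 before and 0.749 after adjustment in limma. In Fe-1 it was at 5.25 to 5.33 and in Col-0 at 5.36 to 5.88, so that the levels in Col-0 lay below those of Ts-1 and Van-0. The cytokinin response regulators RR19 and ARR15 had differences of -0.55 ± 0.17 and -0.89 ± 0.45 (adjusted p 0.968 each). POL, a phosphatase that acts downstream of CLV3, RBL and ULT1 differed by 0.24, 0.13 and -0.00.

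PHV was the 1 HD-ZIP III gene of 5 that was measured, and it was nearly level, at 10.16, 9.88 and 10.22 in Ler-0, Nw-0 and Bay-0, against 10.02 in Ts-1 and 10.08 in Van-0 (0.04 ± 0.14). Of the ARGONAUTE and small RNA genes, AGO7, which acts in the making of trans-acting small RNAs, differed by 0.15 ± 0.14 and SE, a factor of microRNA processing, by 0.01 ± 0.12. Besides SQN, the immunophilins held ROF2 (AT5G48570), a heat-induced FK506-binding protein, at 7.32, 7.19 and 7.41 in Ler-0, Nw-0 and Bay-0, against 7.94 in Ts-1 and 10.50 in Van-0 (-1.92 ± 0.75, adjusted p = 0.968). Van-0 alone made this difference large. CYP71 was level at -0.00.

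The remaining lists had 1 to 4 measured members each. The differences were 0.20 for the polarity gene YAB3 and 0.20 for the clock gene GI, and -0.26 for the small heat shock protein gene AT1G53540. They lay between -0.09 and 0.10 for PORB, RCA and LHCB4.2 of photosynthesis, between -1.12 and 0.26 for the glucosinolate pathway (AT2G25450, AOP3, BCAT4 and AOP1), and between -0.46 and -0.17 for the stress genes STZ and COR15A. In the defence list, THI2.2, SAG101, THI2.1 and PDF1.2 differed by -1.12, -0.39, -0.20 and -0.15. No adjusted p of these members was below 0.968.

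Markers of other seed tissues differed between the arrays. Of 7 markers each, 1 of the embryo (PHV), 2 of the seed coat and 1 of the endosperm were measured, so that the labelled tissue could be checked only in part. BAN, an enzyme of tannin synthesis in the seed coat, was at 5.26, 5.01 and 4.72 in Ler-0, Nw-0 and Bay-0, against 5.05 in Ts-1 and 7.61 in Van-0. DFR, an earlier enzyme of the same pathway, was at 7.97, 6.33 and 5.28, against 6.32 in Ts-1 and 7.43 in Van-0. Van-0 was thus high for both and Ler-0 for DFR, and Fe-1 replicates 2 and 3 were high too, at 8.77 and 7.40 for BAN and 9.51 and 7.53 for DFR. Of the endosperm genes, AGL62 and IKU2 were at background, between 3.57 and 4.0, on the 5 arrays.

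The endosperm gene PHE1 was read only in a probe set shared with AGL38, and this probe set is 1 of the 65. It was at 5.94, 6.13 and 5.84 in Ler-0, Nw-0 and Bay-0, against 7.36 in Ts-1 and 7.78 in Van-0 (-1.60 ± 0.17, adjusted p = 0.298). Both ZLL-independent arrays were above all others, with Fe-1 at 5.43, 6.88 and 5.90 and Col-0 at 6.36, 5.75 and 6.66, and Fe-1 replicate 2 was again the highest of its accession. Fewer cells of a type and less RNA per cell cannot be told apart in whole embryos, and the part of these tissue markers in the 65 probe sets was not tested. The lists and this shared probe set were taken up with earlier results of the data known.

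**Figure D5:**
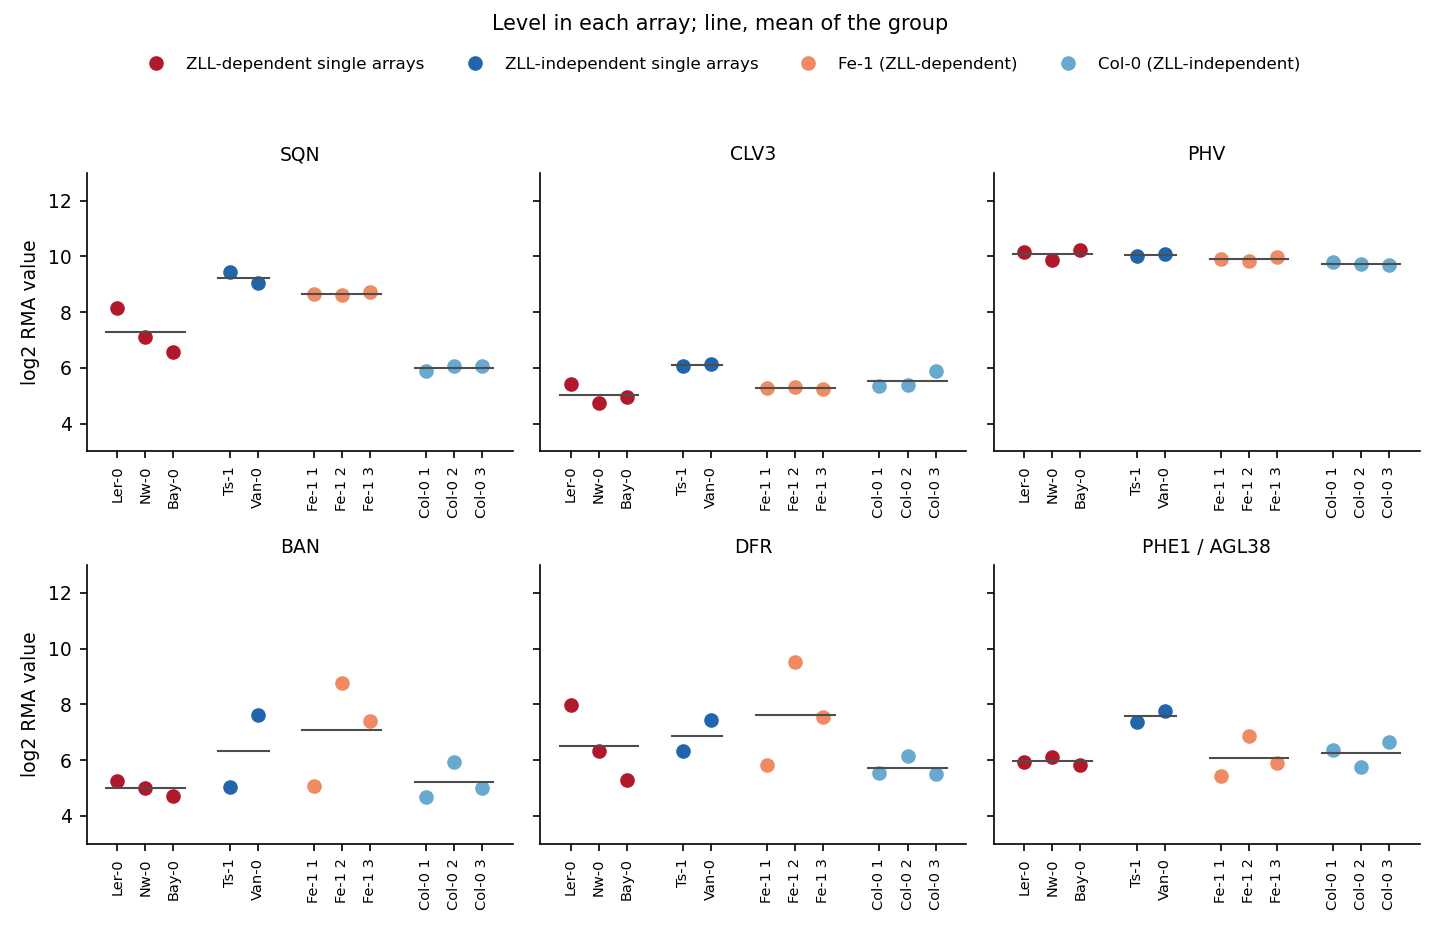
Log2 RMA value (vertical axis) of SQN, CLV3, PHV, the seed coat genes BAN and DFR and the probe set of PHE1 / AGL38 in each of the 11 arrays (horizontal axis), with points for arrays and a line for the mean of each group. SQN is highest in Ts-1 and Van-0 and lowest in Col-0, and BAN is above 7 in Van-0 and in Fe-1 replicates 2 and 3.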

How the data were processed

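The authors processed the ATH1 arrays with RMA and deposited log2 values per probe set, which were used without further normalisation. No source used here gives the RMA version or the chip definition. The labels state a small-sample labelling protocol. After removal of 64 control probe sets, 22746 were tested. Of these, 13513 have 1 gene in the platform annotation, 503 several and 8730 are not listed; 13436 were matched to the RefSeq TAIR10.1 gene table, used for names, chromosomes and gene order.

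Differences were fitted with limma 3.58.1 (lmFit and eBayes, two-sided) in R 4.3.3, and figures drawn with matplotlib 3.10.9. A call needed a Benjamini-Hochberg adjusted p under 0.05 over all probe sets and 3-fold. Fe-1 was compared with Col-0 in a fit of their own, and the difference of both comparisons in a fit of 4 groups. The fits were run on simulated data with a common spread per probe set, and only the return of planted differences was required. This was no test of the calls in the real data, where the spread differs between accessions and replicates. Nothing says that the single arrays were repeated, so p-values measure only the spread between arrays.

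Named were the calls with 1 gene name (up to 12 in each direction), the 12 largest non-overlapping increases and decreases with 1 gene name, the probe sets the study lists for its grouped comparison and near the FHE regions, SQN, up to 3 members of each gene list by p, and the seed coat and endosperm markers. PHE1 / AGL38, POL, RBL, ULT1, CYP71 and BCAT4 were added after their values were seen. The members and lists were chosen with earlier results of these data known. Alternatives were other normalisations, filters, thresholds, spreads and left-out arrays.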

Additional observations from a re-analysis of the deposited data

Results flagged for a closer look

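For 18 of the named probe sets the single-array difference and the difference between Fe-1 and Col-0 were unlike each other in the 4-group test of all 11 arrays (adjusted p under 0.05, limma). The values below are the first difference minus the second on the log2 scale. All 18 had been named for a large single-array difference or listed by the study for Fe-1 and Ler-0 against Col-0. Their number is thus no independent evidence of a difference. Genes that were relatively higher in the single-array comparison were ETFBETA (4.51), AT5G39130 (3.72), AT3G43960 (4.67), AT5G40920 (2.58), AT5G44520 (4.57), AT4G20420 (2.88), the receptor gene AT4G19510 (4.90), AT2G13970 (2.65) and AT3G29120 (4.17). For AT2G13970 and AT3G29120 the single-array differences were -0.23 and 0.11, and Col-0 was above all other arrays.

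Genes that were relatively lower were AT3G44430 (-5.55), AT4G17215 (-2.64), AT2G39640 (-2.44), scpl44 (-4.37), AT1G48180 (-3.91), SQN (-4.61), AGP30 (-1.42), AT2G35820 (-3.17) and AT4G39190 (-1.79). Of these, AGP30, an arabinogalactan protein, differed in 1 direction in both comparisons, by 0.80 in the single arrays and by 2.22 between Fe-1 and Col-0. AT4G17215 and AT2G39640 were at 7.12 and 6.59 in Ts-1 and at 7.10 and 6.40 in Van-0, above every array of the other accessions.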

How the results depend on the processing

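The 3 calls stayed at 3 with renewed quantile normalisation, median centring, a filter on the lowest 25% of probe sets, an intensity trend with a robust fit, a 2-fold threshold and no fold limit, and the same 3 probe sets were called in each of the 4 fits among these. The number was 0 with an ordinary t statistic, with 1158 at an unadjusted p under 0.05, and 0 without each of the 5 arrays in turn (range 0 to 0). It was 47 at an unadjusted p with 3-fold, 20 with 4 groups over all 11 arrays and 91 with the spread within accessions, which takes the replicates' spread for that between accessions; each of the last fits kept the 3. Without probe sets that may cross-hybridize 2 were called, since that of AT5G17100 is left out. With 1 mean each of Fe-1 and Col-0 added, AT5G17100 and AT2G33220 were called (2), and ETFBETA and AT3G44430 were not (adjusted p 0.966 each). The non-overlapping probe sets numbered 218 at 2-fold and ranged over 102 to 172 with 1 array left out, where fewer arrays have to be kept apart. Under the spread within accessions 2 shoot meristem regulators, 2 immunophilin probe sets and 1 glucosinolate gene passed without a fold limit, next to 1486 of all probe sets (6.53%).

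Fe-1 and Col-0 share replicate numbers. Deviations of same-numbered arrays correlated at 0.23, 0.04 and 0.11, and those of unlike-numbered arrays at -0.15 to 0.04. Fe-1 replicate 2 correlated about as well with Col-0 replicate 3 (0.037) as with Col-0 replicate 2 (0.035). Whether same-numbered arrays were handled together was not tested. With the replicate block 325 probe sets were called in place of 319, and 302 to 353 with 1 array left out. The difference of both comparisons gave 130 calls with the accession as a random block, 506 to 1861 with 1 array left out (lower by over 1.5 times without Van-0 or any 1 array of Fe-1 or Col-0), and, chosen after seeing the data, 117 without Fe-1 replicates 2 and 3 and 108 also without Van-0, against 1272. For single named probe sets, 941 values over all settings kept direction and side of the threshold, 42 newly passed, 20 no longer passed and 34, of 18 probe sets, changed sign, none of which was called before or after. Examples are scpl44 at 0.95 and CRR7 at -0.71 with the means of Fe-1 and Col-0 added, and GLP6 at -1.27 without Ts-1. The cause of these shifts was not tested. The number of arrays limits the precision, and levels below the lower quartile are near background.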
